A study of Rattus norvegicus with 6 samples.

Results

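Fibronectin, the interstitial collagens, smooth muscle actin and vimentin were followed in the lens capsule of rats with a selenite-induced cataract. The group holds 6 genes of the 22263 listed in the mRNA count table. It was set by gene identity: Fn1 (ENSRNOG00000014288), Col1a1 (ENSRNOG00000003897), Col1a2 (ENSRNOG00000011292), Col3a1 (ENSRNOG00000003357), Acta2 (ENSRNOG00000058039) and Vim (ENSRNOG00000018087). The table carries Ensembl gene IDs without symbols, so these names were supplied with the choice of genes, and no reference at hand allowed them to be checked.

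The samples were lens capsules of 6 Sprague Dawley rat pups, the membrane around the lens with the cells that adhere to it. The Na2SeO3 group was 3 pups given sodium selenite under the skin of the neck, at 20 µmol/kg on days 3, 5 and 7. The control group was 3 pups given saline in the same way. The study reports that selenite pups weighed less than control pups, and reads this as retarded development. Any bearing of growth on the results was not tested. The labels name no transgene or mutation in either group. The selenite cataract of the young rat forms quickly and lies mainly in the lens nucleus, and it differs in part from the human age-related disease. Total RNA was sequenced in paired reads of 150 bp, and the control samples held 11874219 to 16120616 mRNA counts against 12744584 to 13635926 in the Na2SeO3 samples. The study's methods place collection of the lenses on a set day of the experiment, after the last injection. The labels gave no sequencing batch, age at collection or sex.

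Lens epithelial cells form a single sheet under the anterior capsule and secrete it. When such cells undergo epithelial-mesenchymal transition, as happens in posterior capsule opacification after surgery, they become myofibroblasts that contract and lay down fibronectin and interstitial collagen. Fibronectin, collagens I and III and smooth muscle actin are therefore used as marks of lens fibrosis. Vimentin marks mesenchymal cells elsewhere, but it is also an ordinary intermediate filament of the healthy lens, its epithelium included. Interstitial collagens and smooth muscle actin are also made by fibroblasts and vascular or ciliary muscle cells of the eye. In whole tissue RNA, fewer cells of one kind and less RNA in each cell cannot be told apart. Markers of those cells could not be read from the table without symbols, so their part in the results was not tested.

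Promoter sequences from RefSeq were at hand for 3 of the 6 genes, Col1a2, Acta2 and Vim, which all had lower expression in the Na2SeO3 group. They are shown to let the start regions of genes that moved in the same direction be compared. Each is a stretch of the 250 bases before the annotated start, printed on the strand of the gene in the build GRCr8. Capitals mark the TATA box letters TATAAA and the CCAAT box, read as ATTGG from the other strand, as well as the CArG box, the site of serum response factor in muscle actin genes, with up to 1 mismatch in its A/T core. The stretches lie at chr4:33518326-33518402 on the plus strand (Col1a2), chr1:241172568-241172647 on the minus strand (Acta2) and chr17:81577107-81577194 on the plus strand (Vim).
Col1a2: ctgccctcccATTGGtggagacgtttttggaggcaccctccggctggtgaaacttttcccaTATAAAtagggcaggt
Acta2: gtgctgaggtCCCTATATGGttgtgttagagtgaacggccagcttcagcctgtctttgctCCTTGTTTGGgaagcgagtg
Vim: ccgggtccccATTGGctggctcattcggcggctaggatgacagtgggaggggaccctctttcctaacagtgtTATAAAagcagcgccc

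The Col1a2 and Vim windows each held 1 TATAAA and 1 inverted CCAAT, whereas the Acta2 window held neither. The TATAAA began 170 bases before the annotated start in Col1a2 and 82 bases before it in Vim. Whether it acts as a TATA box for that start was not tested. The Acta2 window held 2 CArG boxes with 1 mismatch each, which the other windows lacked. Among 33465 RefSeq windows of the same length, TATAAA occurred in 12.9%, the CCAAT box in 34.0% and a CArG box with up to 1 mismatch in 8.08%, on either strand. None of these motifs was present in all 3 windows, and their relation to the change in expression was not tested. The matches describe letters in a window and not sites in use.

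The main question was whether expression of the matrix and mesenchymal genes differs between the cataractous and the normal lens capsule. Expression of 5 of the 6 genes was lower in the Na2SeO3 group and that of Col3a1 was higher. Col1a2, by far the least counted of the 6, had the largest fitted fall, followed by Acta2 and Col1a1. The falls of Fn1 and Vim were the smallest. The approximate 95% intervals were -1.08 to -0.67 (Col1a2), -0.86 to -0.62 (Acta2) and -0.77 to -0.63 (Col1a1) on the log2 scale, so the order of these genes was not resolved. Those of Fn1 (-0.52 to -0.35) and Vim (-0.47 to -0.31) overlapped each other and not the first group. All 6 genes passed the filter on low counts, and all 6 passed a Benjamini-Hochberg adjusted p-value of 0.05 in the edgeR quasi-likelihood test over 14906 genes. Of all genes tested, 23.7% were lower and 23.2% were higher by the same rule, so passing it was common in these samples. With the additional threshold of an absolute log2 fold change above 1, 0 of the 6 genes were called by edgeR, against 7.75% of all genes in either direction and 5.23% in the lower direction. DESeq2 also called 0 of them at that threshold, against 1107 of all 14906 genes tested. The study, which also used edgeR, lists Fn1 among its down-regulated genes past a fold-change threshold of the same size. Its text names Acta2 among its hub genes as well. The fit here did not reproduce a change of that size for either gene, and the reason for the difference was not tested. The median log2 fold change of the 6 genes was -0.57 and that of all genes tested was 0.01.

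**Figure D1:**
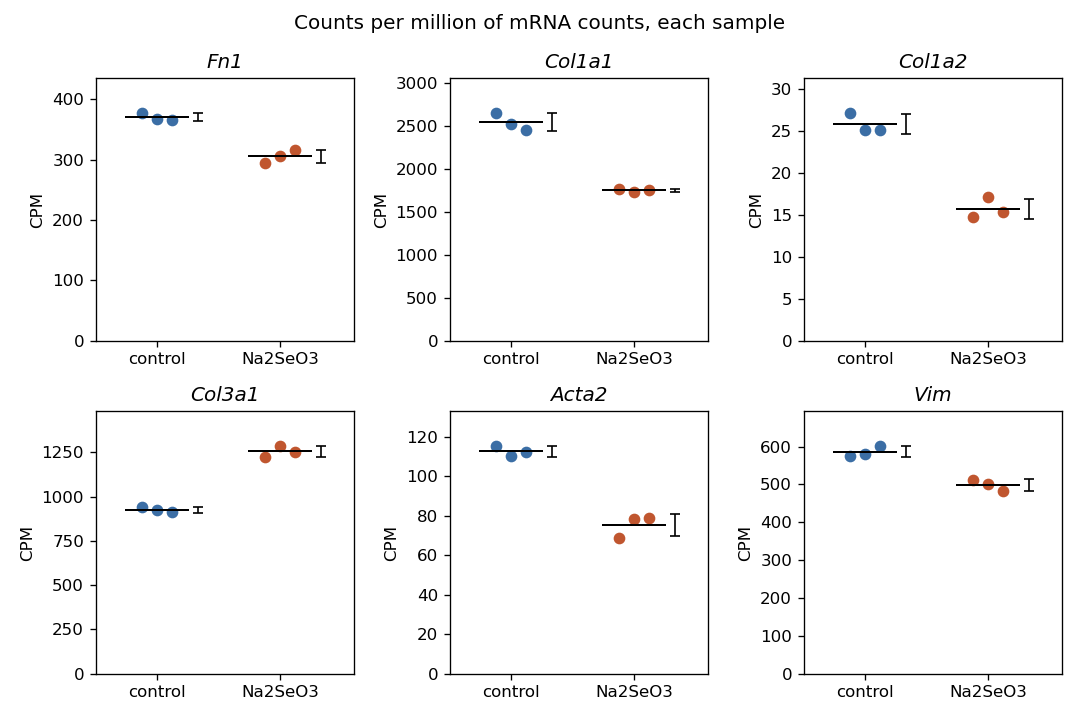
Each panel plots CPM, counts per 1000000 counts of the sample's mRNA column, of one gene on an axis that starts at 0, with one point per rat, a line at the group mean and a bar of 1 SD beside it (n = 3 per group). The 3 Na2SeO3 samples lie below all control samples for Fn1, Col1a1, Col1a2, Acta2 and Vim, and above them for Col3a1.

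Fibronectin, the glycoprotein that links cells through integrins to the matrix, was considered first. Fn1 was read at 378, 367 and 365 CPM in control replicates 1, 2 and 3, and at 294, 306 and 315 CPM in Na2SeO3 replicates 1, 2 and 3. All Na2SeO3 samples were lower than the lowest control sample. Mean expression was 370 ± 6.88 CPM without selenite and 305 ± 10.6 CPM with it (SD, n = 3). With TMM factors, which scale libraries by the bulk of genes, the log2 fold change was -0.44 ± 0.04 (approximate SE, edgeR adjusted p = 1.21e-09). Of all genes tested, 28.0% had a larger absolute change. When libraries were scaled by their totals instead, the log2 fold change of Fn1 was -0.28.

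Type I collagen is a triple helix built from chains of Col1a1 and Col1a2, and is the main collagen of scars, sclera and tendon. Col1a1 stood at 2659, 2531 and 2459 CPM in the control samples and at 1767, 1731 and 1761 CPM in the Na2SeO3 samples. The groups were far apart, and the Na2SeO3 samples lay closer to each other than the control samples. The means were 2550 ± 101 and 1753 ± 19.6 CPM (SD, n = 3). The log2 fold change was -0.70 ± 0.04 (approximate SE, edgeR adjusted p = 3.56e-15), a level 1.62 times lower on the TMM scale. In the RefSeq annotation of GRCr8 the span of Col1a1 overlaps that of 1 other gene, Sgca, which encodes a sarcoglycan of striated muscle. Whether the counting used the strand was not stated, so reads from an overlap of the pair could not be assigned. No annotated gene overlapped the other 5.

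Col1a2, the partner chain, was by far the least counted of the 6. Its counts were 401, 299 and 406 in the control samples and 201, 231 and 195 in the Na2SeO3 samples, or 27.2, 25.2 and 25.2 CPM against 14.7, 17.1 and 15.3 CPM. No Na2SeO3 sample reached the control range. The means were 25.9 ± 1.18 and 15.7 ± 1.23 CPM (SD, n = 3), and the log2 fold change was -0.88 ± 0.10 (approximate SE, edgeR adjusted p = 6.995e-08). Its interval included the threshold of a log2 fold change of -1. Of all genes tested, 10.4% changed more. Counting error alone was 4.96% to 7.16% of a value for this gene, against 0.502% to 0.667% for Col1a1, so Col1a2 was the least precise of the 6.

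Col1a1 had at least 97.6 times the counts of Col1a2 in every sample, although both chains enter the same collagen. In the control samples the ratio of their counts was 97.7, 101 and 97.6, and in the Na2SeO3 samples it was 120, 101 and 115. These counts are not divided by transcript length, which the table does not give, and the counting tool was not stated. Whether the ID supplied as Col1a2 is that gene was not checked, and whether part of its reads went uncounted was not tested. A loss that is the same in every sample would cancel from its fold change.

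Type III collagen, the homotrimer of Col3a1 chains that is laid down with type I collagen in young and distensible tissue, moved in the opposite direction. Col3a1 was read at 943, 921 and 910 CPM in the control samples and at 1223, 1288 and 1253 CPM in the Na2SeO3 samples. Each Na2SeO3 sample exceeded each control sample, with means of 1254 ± 32.5 CPM against 925 ± 17.0 CPM (SD, n = 3). The log2 fold change was 0.28 ± 0.04 (approximate SE, edgeR adjusted p = 6.04e-07). It was 0.44 when libraries were scaled by their totals. Col3a1 rose under both scalings, by 1.22 times on the TMM scale, and 44.2% of all genes tested had a larger absolute change.

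Acta2 encodes smooth muscle actin, the contractile actin of vascular muscle and of myofibroblasts. It was read at 116, 110 and 113 CPM in the control samples and at 68.9, 78.4 and 78.9 CPM in the Na2SeO3 samples. Na2SeO3 replicate 1 was the lowest of all, and the other two Na2SeO3 samples were still clearly below the control samples. The means were 113 ± 2.76 and 75.4 ± 5.64 CPM (SD, n = 3), with a log2 fold change of -0.74 ± 0.06 (approximate SE, edgeR adjusted p = 4.52e-11). Without Na2SeO3 replicate 1 the log2 fold change was -0.67. The actin genes resemble each other in sequence, so reads that fit several of them may have been split or dropped, which was not tested.

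Vim, which encodes an intermediate filament of the lens, had the smallest fitted change of the genes that fell. It was read at 575, 580 and 602 CPM in the control samples and at 513, 501 and 482 CPM in the Na2SeO3 samples. The groups did not overlap, and the gap between them was wider than the range within either group. The means were 586 ± 14.6 and 498 ± 15.4 CPM (SD, n = 3). The log2 fold change was -0.39 ± 0.04 with TMM factors (approximate SE, edgeR adjusted p = 2.63e-09) and -0.23 with total counts.

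**Figure D2:**
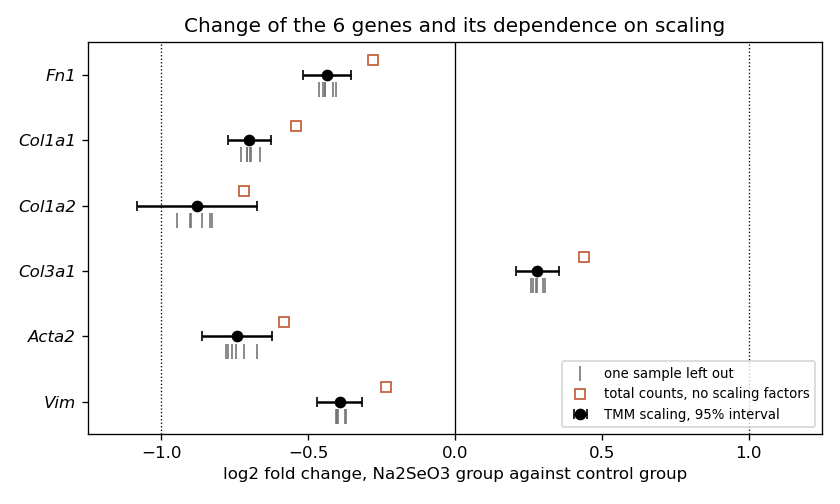
The log2 fold change of each gene (Na2SeO3 group against control group, horizontal axis) is plotted with TMM scaling and an approximate 95% interval (black), with one of the 6 samples left out in turn (grey ticks) and with scaling by totals (open squares). Dotted lines mark log2 fold changes of -1 and 1, and every point lies between them, with Col1a2 at -0.88 nearest to a line.

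The CPM values depend on what else the libraries contain. The 50 most abundant mRNA genes took 16.4% to 16.8% of the counts in the control samples and 9.34% to 9.87% in the Na2SeO3 samples, and Col1a1 is one of them. TMM factors were accordingly 0.940 to 0.950 in the control samples and 1.05 to 1.06 in the Na2SeO3 samples. Scaling by totals instead moved the median over all genes tested from 0.01 to 0.16 on the log2 scale. Each of the 6 genes shifted upward by 0.16 with it, and 0 of 6 changed direction. The 6 genes did not overlap between groups on the TMM scale, as was true of 53.9% of all genes tested.

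The joint output of the 6 genes was also compared. Together they took 0.470%, 0.454% and 0.447% of the mRNA counts in the control samples and 0.388%, 0.392% and 0.391% in the Na2SeO3 samples. Every Na2SeO3 sample was lower than every control sample, with a mean difference of -0.0667 percentage points. Set against the counts outside the 50 most abundant genes, a sum that does not hold Col1a1, the counts of the 6 genes came to 0.548% ± 0.016 in control samples and 0.432% ± 0.0036 in Na2SeO3 samples (SD, n = 3), a difference of -0.116. The exact two-sided permutation test gave p = 0.1 for both, the smallest value that 3 samples against 3 allow. Within this sum Col1a1 took 55.8% ± 0.82 in control samples and 44.9% ± 0.72 in Na2SeO3 samples (SD, n = 3). Col3a1 took 20.2% ± 0.14 and 32.1% ± 0.67, whereas Vim took 12.8% ± 0.62 and 12.8% ± 0.44. Shares of one sum are not independent of each other, and no test was made on them.

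Ratios between genes of the same sample were then taken, since they do not depend on how a library is scaled and gene length cancels when groups are compared. Differences in these ratios largely restate the fold changes given above, and Col1a1, which fell, enters all 5 of those chosen. Among the 5, the largest difference was that of Col3a1 against Col1a1. There were 0.355, 0.364 and 0.370 counts of Col3a1 per count of Col1a1 in the control samples, and 0.692, 0.744 and 0.711 in the Na2SeO3 samples. On the log2 scale this ratio was -1.46 ± 0.03 in control samples and -0.48 ± 0.05 in Na2SeO3 samples (SD, n = 3), a difference of 0.98 that exceeds the spread of the samples many times over. The exact permutation test gave p = 0.1, or 0.125 after Benjamini-Hochberg adjustment over the 5 ratios compared, and no smaller p could be reached.

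Fn1 and Vim were also higher relative to Col1a1 in the Na2SeO3 group. The log2 ratio of Fn1 to Col1a1 was -2.78 ± 0.03 in control samples against -2.52 ± 0.06 in Na2SeO3 samples, and that of Vim to Col1a1 was -2.12 ± 0.09 against -1.81 ± 0.05 (SD, n = 3). In both ratios all Na2SeO3 samples lay above all control samples (exact permutation p = 0.1, adjusted 0.125). The count ratio of Col1a1 to Col1a2 was higher in the Na2SeO3 group by 0.18 on the log2 scale, with the same p. One Na2SeO3 sample and the highest control sample were both at 101, nearer to each other than the counting error of Col1a2 allows to be told apart. No change in the ratio of Acta2 to Col1a1 was detected. The log2 ratio was -4.50 ± 0.04 in control samples and -4.54 ± 0.12 in Na2SeO3 samples (SD, n = 3), the groups overlapped (exact permutation p = 0.8), and without Na2SeO3 replicate 1 the difference was 0.026 in place of -0.044. Samples this few do not show that the pair changed alike.

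**Figure D3:**
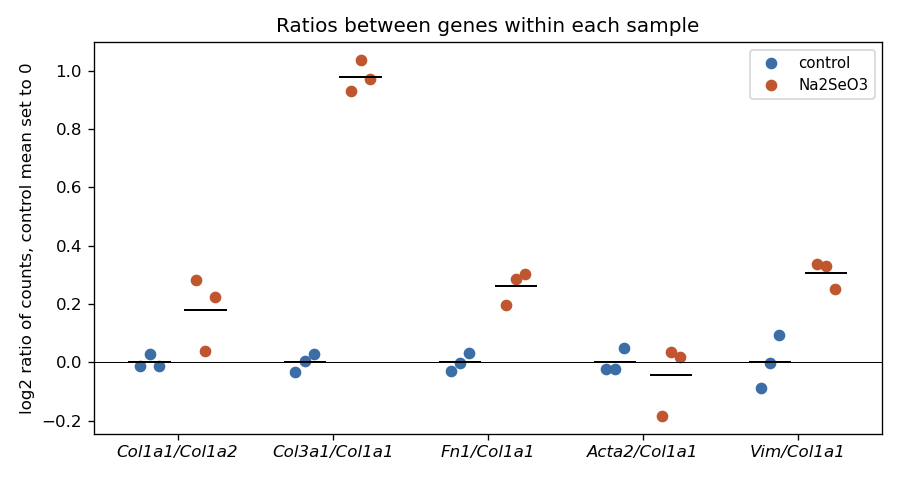
The log2 ratio of counts of each gene pair is plotted for each sample with the control mean set to 0 (vertical axis), for the control group (blue) and the Na2SeO3 group (orange), with a line at each group mean (n = 3). The Col3a1/Col1a1 ratio is 0.98 higher in the Na2SeO3 group, while the Acta2/Col1a1 ratio overlaps between the groups.

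The genes were next compared with each other and with the rest of the table by their pattern over the 6 samples. Likeness was measured as the root mean square difference of log2 CPM (TMM scale) after each gene was centred on its own mean. Among the 6 genes the nearest pair was Fn1 and Vim, at 0.07, followed by Col1a1 and Acta2 at 0.08 and Col1a2 and Acta2 at 0.08. The farthest pair was Col1a2 and Col3a1 at 0.57. The patterns thus fell into a smaller fall shared by Fn1 and Vim, a larger fall of Col1a1, Col1a2 and Acta2, and the rise of Col3a1. The smaller and the larger fall were not sharply parted. Col1a1 and Col1a2 lay at 0.11 from each other, and Fn1 and Col1a1 at 0.14. This measure largely restates the fold changes given above.

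Such patterns were not rare in the table. Of 10777 other genes whose mean CPM was 10 or more, 1648 lay within 0.1 of Col3a1, 955 of Vim, 704 of Fn1, 229 of Col1a1, 144 of Acta2 and 91 of Col1a2. The nearest gene to Col3a1 was ENSRNOG00000018309, at 0.01 and with a log2 fold change of 0.27. The nearest gene to Acta2 was ENSRNOG00000046428, at 0.01 and with a log2 fold change of -0.73, and the nearest to Fn1 was ENSRNOG00000020308, at 0.02 and with a log2 fold change of -0.42. Each is the single nearest gene to the member named, and the table does not give their symbols.

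**Figure D4:**
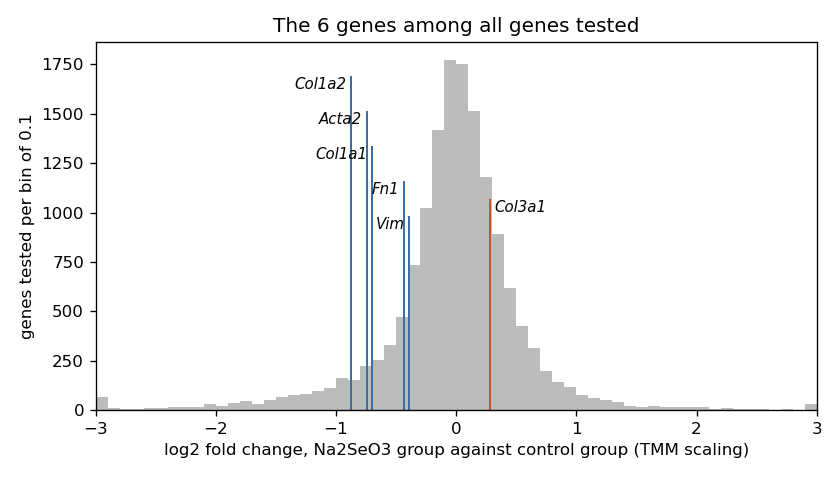
The histogram counts genes tested (vertical axis) by log2 fold change in bins of 0.1 (horizontal axis, TMM scaling), with the 90 genes beyond 3 in size added to the outermost bins, and lines mark the 6 genes. Fn1, Vim, Col1a1, Acta2 and Col1a2 lie on the left flank and Col3a1 lies right of the centre, at 0.28.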

How the data were processed

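The authors deposited whole-number read counts per Ensembl gene ID for mRNA, with 1 column per rat. Per the study's methods and the submitters' processing notes, reads were trimmed with Cutadapt and Fqtrim, checked with FastQC and aligned with HISAT2 to an Ensembl rat reference. The build, annotation release and counting tool are not given in the sources used here. Groups and replicate numbers came from sample titles. Tables of lncRNA and circRNA counts were not used here.

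CPM used column totals. The whole table was fitted with edgeR 4.0.16 in R 4.3.3 (filterByExpr, TMM, quasi-likelihood test, Benjamini-Hochberg adjustment), as the study used edgeR. The SE is the log2 fold change over the root of F. Shares and ratios had two-sided exact permutation tests. The fit was tested on simulated data. DESeq2 1.42.0 was an alternative. The genes, lists and tests were chosen with earlier results of these data known, and the promoter motifs after the sequences were seen. The RefSeq gene table pairs 0 Ensembl IDs with symbols, so the planned lists of pathway genes and cell type markers were not computed. Named genes were the 6 and the nearest in pattern, with at most 2 IDs in each direction. Replicates did not agree within sampling noise (chi-square per gene 2.19 to 5.50 within groups), and all 6 were counted separately. Across groups the lowest chi-square per gene was 78.6. The common biological variation between replicates that edgeR fitted was 5.62%, and the small SEs rest on it.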

Additional observations from a re-analysis of the deposited data

How the results depend on the processing

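Each of the 6 genes was followed through 16 alternatives of scaling, filter, test, block, depth and left-out sample, and kept its direction and its side of the adjusted p of 0.05 in all of them. With one sample left out the log2 fold changes ran from -0.46 to -0.40 (Fn1), -0.73 to -0.66 (Col1a1), -0.95 to -0.83 (Col1a2), 0.26 to 0.31 (Col3a1), -0.78 to -0.67 (Acta2) and -0.41 to -0.37 (Vim). Total counts gave the value farthest from these for each gene, -0.54 for Col1a1, -0.72 for Col1a2 and -0.58 for Acta2 among them. The number of the 6 genes called at both thresholds was 0 in every alternative, glmTreat (added after the data were seen) included, and 6 without the fold-change threshold. The log2 ratio of Acta2 to Col1a1 differed by -0.083 to 0.026 with one sample left out, and the positive value came without Na2SeO3 replicate 1. The counts of the 6 genes relative to the counts outside the 50 most abundant genes differed by -0.116 percentage points. Col1a1 is counted in the former and not in the latter, so this is not a share of a total.

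With the replicate number as a block, the log2 fold change was -0.88 for Col1a2 and -0.44 for Fn1, and no call changed. The numbers do not pair the samples, since same-numbered samples are different rats and their deviations correlated at -0.015 to 0.005, with 1 of the 6 samples closest to its own number. Pathway lists gave no values under any setting, since the table holds IDs without symbols.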
